A study of Mus musculus with 18 samples.

Results

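The Krüppel-like factors are transcription factors with zinc fingers at their carboxyl end that bind CACCC boxes and other GC-rich elements. Their remaining, divergent parts recruit activators or repressors, so that members of the family can act on shared sites in opposite ways. In blood cells Klf4 promotes monocyte differentiation, Klf2 holds lymphocytes quiescent and restrains inflammatory activation of monocytes, and Klf6 has been linked to inflammatory gene expression in macrophages. Here 8 family members (Klf2, Klf3, Klf4, Klf6, Klf7, Klf9, Klf10 and Klf13) were followed in mouse dendritic cells exposed to lipopolysaccharide (LPS), an outer membrane lipid of bacteria that is sensed through TLR4 and its co-receptor CD14. A member was read from the probe sets annotated to it alone, by the one with the highest mean level, and these 8 genes are 8 of 12394 genes on the arrays. The other probe sets of the same genes, which bring the total to 24, served as a check.

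Dendritic cells were grown from bone marrow of C57BL/6 or Cd14-/- C57BL/6 mice aged 6 to 8 weeks, for 7 to 10 days in medium with supernatant of B16 tumor cells that secrete GM-CSF. The 3 conditions were wild type cells with smooth LPS at 1 µg/ml, wild type cells with the same LPS and 2 mM EGTA, a chelator of extracellular calcium, and Cd14-deficient cells with smooth LPS, for which no concentration is given. Each condition had 1 array without LPS and 1 array at each of 2, 4, 6, 12 and 24 h of LPS, 18 arrays in all. The design text contrasts EGTA and loss of CD14 to single out effects of calcium flux, and the series title names NFAT, a calcium-dependent transcription factor. Unstimulated cells were harvested 24 h after plating, so time since plating and LPS cannot be told apart at 2 to 12 h. EGTA appears in the title of the unstimulated array of that condition, but the protocol given for it speaks only of plating. No label says that arrays came from separate cultures or animals, so the p-values reflect the spread among these arrays alone, and that spread may be technical. With 1 array per condition and time, it also holds any change of a condition difference over time.

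Levels are quantile-normalised log2(intensity + 16), and differences and fold changes are on that scale, which understates changes of dim genes. A change or difference was called at a Benjamini-Hochberg adjusted p under 0.05 from limma, adjusted over all genes tested. The Cd14 probe set, which checks the genotype labels, was at 12.5 to 13.3 on the 12 arrays of wild type cells and at 4.28 to 5.84 on the 6 Cd14-deficient arrays. Of 9 dendritic cell markers, 8 lay above the array's gene median on every array (Itgax, which encodes CD11c, at 11.2 to 12.4), and the progenitor receptor Flt3 did so on 1 of 18. None of the 6 T and NK cell markers and none of the 4 melanocyte markers measured did so on any array, whereas all 9 macrophage markers did so on all. The unstimulated EGTA array stood apart, with a first percentile of intensity of 3.63 against at most 0.939 on the others, and the RNA integrity number was 8.8 and 8.7 for EGTA at 12 and 24 h against 9.3 to 10 elsewhere. Scaling set the overall balance of calls. The LPS mean gave 1925 higher and 2448 lower genes with quantile normalisation, 2439 and 1514 with median centring, and 921 and 3707 without scaling, with medians over all genes of -0.05, 0.09 and -0.32.

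Promoter sequence of some members is shown as a description, and its relation to the values that follow was not tested. RefSeq (GRCm38.p6) gave a promoter window for 7 of the 8 members, of which the 250 bases before the gene start are used. Printed are those of Klf4, Klf9 and Klf13, each of which was called lower at every LPS time, and of Klf2, the only member with a MEF2 site in its window. They lie at chr4:55532476-55532725 (minus strand, Klf4), chr19:23140976-23141225 (plus, Klf9), chr7:63938916-63939165 (minus, Klf13) and chr8:72318812-72319061 (plus, Klf2), each written 5′ to 3′ on the gene's strand. Capitals mark CACCC boxes, GC boxes (GGGCGG) and the MEF2 site on either strand, and in Klf13 a GC box and a CACCC box overlap.
Klf4: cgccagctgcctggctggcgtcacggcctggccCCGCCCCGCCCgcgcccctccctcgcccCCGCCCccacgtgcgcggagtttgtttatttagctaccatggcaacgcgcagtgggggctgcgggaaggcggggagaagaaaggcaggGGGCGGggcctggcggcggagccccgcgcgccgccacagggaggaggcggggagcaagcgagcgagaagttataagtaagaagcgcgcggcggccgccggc
Klf9: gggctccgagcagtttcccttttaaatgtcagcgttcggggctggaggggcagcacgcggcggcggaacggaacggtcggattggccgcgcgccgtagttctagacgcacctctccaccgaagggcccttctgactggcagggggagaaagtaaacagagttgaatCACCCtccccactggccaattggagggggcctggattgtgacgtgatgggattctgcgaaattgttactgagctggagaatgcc
Klf13: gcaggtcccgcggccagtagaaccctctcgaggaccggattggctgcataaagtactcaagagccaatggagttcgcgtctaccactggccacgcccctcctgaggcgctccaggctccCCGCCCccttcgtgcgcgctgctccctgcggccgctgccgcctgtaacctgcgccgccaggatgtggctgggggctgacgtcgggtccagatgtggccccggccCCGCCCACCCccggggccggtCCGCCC
Klf2: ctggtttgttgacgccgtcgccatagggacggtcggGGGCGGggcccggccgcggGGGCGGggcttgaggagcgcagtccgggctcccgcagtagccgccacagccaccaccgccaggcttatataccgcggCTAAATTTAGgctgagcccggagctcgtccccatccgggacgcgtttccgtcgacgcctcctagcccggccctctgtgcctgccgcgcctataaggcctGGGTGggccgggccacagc

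The members' windows were GC-rich, at 59.2% (Klf7) to 78.4% (Klf3), all above the median of 52.4% over 32851 windows. A CACCC box, the element the family itself binds, occurred in 5 of 7 windows against 52.01% of all windows, with 5 matches in Klf3 and 3 in Klf7. The windows of Klf4 and Klf6 held none. The GC box occurred in 6 of 7, with 6 matches in Klf3 and 4 in Klf4, against 32.74% of all windows. The MEF2 site, which 2.92% of windows hold, lay 118 bases before the Klf2 start and was searched for after the windows had been seen. An E-box (CACGTG, 6.02% of windows) lay in those of Klf4 and Klf6. A STAT site (TTCNNNGAA, 7.02%) lay 33 bases before the Klf9 start. The NFAT core GGAAA, which 55.57% of windows hold, was found in those of Klf2, Klf6 and Klf9. Neither an AP-1 site (TGACTCA, 4.46%) nor a cAMP response element (TGACGTCA, 1.55%) was found in any of the 7. These matches describe letters in the windows and are not sites of measured binding.

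Most of the family was lower on the LPS arrays than without LPS. At 2 to 12 h, LPS and time since plating cannot be told apart. Averaged over the 5 LPS times and 3 conditions, 5 of 8 members fell (34.7% of all genes tested fell) and 1 rose (27.3%). Klf4 fell 11.1-fold, Klf10 4.31-fold, Klf9 2.16-fold, Klf13 1.87-fold and Klf2 1.45-fold, while Klf6 rose 1.26-fold, and Klf3 and Klf7 were not called. The median change of the members was -0.72, against -0.05 over the 7056 genes tested. At 24 h, the time at which LPS-treated and unstimulated cells had been plated equally long, 6 members were lower and 1 was higher (25.7% and 26.4% of all genes). The same counts were 4 and 3 at 2 h (25.0% and 16.4%), 5 and 1 at 4 h (35.2% and 25.6%), 6 and 1 at 6 h (33.9% and 26.1%) and 4 and 1 at 12 h (29.5% and 27.1%). Where LPS and unstimulated arrays are said below not to overlap, the share of all genes that do the same was not counted. With 1 unstimulated array per condition, such separation may be common. In bulk RNA, fewer cells of a type and less RNA per cell cannot be told apart.

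**Figure D1:**
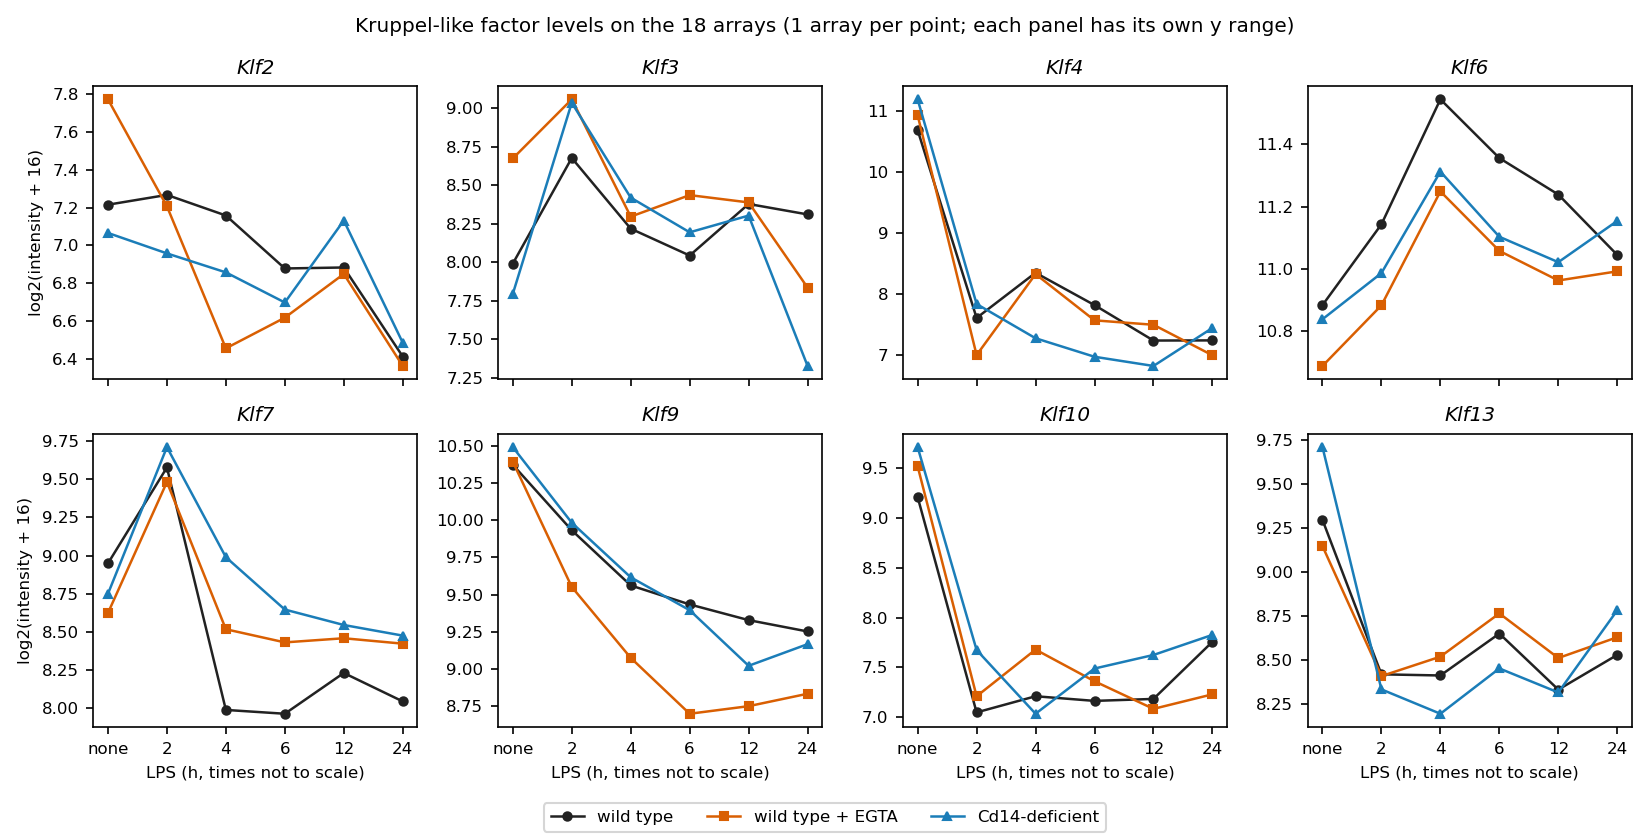
Levels of the 8 Krüppel-like factors on the 18 arrays (y axis, log2(intensity + 16) after quantile normalisation) against hours of LPS (x axis, not to scale), 1 array per point, with a line per condition and its own y range per panel. Klf4, Klf10, Klf9 and Klf13 are lower on every LPS array than on every unstimulated array, a separation not counted over all genes. Klf7 peaks at 2 h in all 3 conditions.

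Klf4, a regulator of monocyte differentiation and of the alternative activation of macrophages, changed most. Without LPS its level was 10.69 in wild type, 10.93 in the EGTA series and 11.20 in Cd14-deficient cells. In wild type cells it was 7.61, 8.35, 7.82, 7.23 and 7.24 at 2, 4, 6, 12 and 24 h, respectively. With EGTA it was 7.00, 8.33, 7.57, 7.49 and 6.99 at these times. The highest LPS value thus lay more than 2 log2 units below the lowest unstimulated one, and the groups did not overlap. In Cd14-deficient cells the level was 7.83, 7.27, 6.97, 6.82 and 7.44 in the same order of times. Wild type and EGTA cells were both higher at 4 h than at 2 h, and Cd14-deficient cells were not. On the deposited linear scale, the wild type intensity went from 1803 without LPS to 175 at 2 h and 130 at 24 h. The mean change was -3.48 ± 0.23 (SE, limma adjusted p = 4.69e-09), the third largest fall of 7056 genes. At 2 h the fall, -3.46 ± 0.29 (limma adjusted p = 2.8e-07), was the largest of all genes tested. A second, dimmer Klf4 probe set gave -2.79 and followed the first with r = 0.985 over the 18 arrays. It was above the array's gene median on only 3 of them and passed the filter on low values through these alone. Its fall is therefore no separate support.

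Klf10, a TGF-β-induced repressor also called TIEG1, fell within 2 h and stayed low. Its unstimulated levels were 9.21 in wild type, 9.52 in the EGTA series and 9.71 in Cd14-deficient cells. Under LPS, wild type cells read 7.05, 7.21, 7.16, 7.18 and 7.76 at the 5 times in order. EGTA cells read 7.21, 7.68, 7.36, 7.08 and 7.23. All LPS arrays lay below all unstimulated arrays, and the 24 h array was the highest of the wild type LPS series. Cd14-deficient cells read 7.68, 7.04, 7.49, 7.63 and 7.83. The mean change was -2.11 ± 0.15 (limma adjusted p = 1.33e-08), and the change was -2.17 at 2 h and -1.88 at 24 h. Klf10 is measured by 1 probe set, so no second reading is at hand.

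Klf13, known in T cells for driving late expression of the chemokine Ccl5, was 9.30, 9.15 and 9.71 without LPS in wild type, EGTA and Cd14-deficient cells. Under LPS it lay between 8.33 and 8.65 in wild type, between 8.41 and 8.76 with EGTA, and between 8.19 and 8.78 without CD14. These ranges overlapped each other and none reached an unstimulated value. The mean change was -0.90 ± 0.11 (limma adjusted p = 3.3e-06), and Klf13 fell by 1.00 at 2 h and by 0.74 at 24 h. Another Klf13 probe set gave -0.76 (limma adjusted p = 1.22e-05), with -0.42 at 2 h and -0.92 at 24 h. The remaining one was too dim to be tested.

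Klf9, a target of glucocorticoid and thyroid hormone receptors, was lower at 2 h and lower still from 4 h on in each condition. In wild type cells it was 10.37 without LPS and then 9.93, 9.56, 9.43, 9.33 and 9.25 at 2, 4, 6, 12 and 24 h. In Cd14-deficient cells it was 10.49, then 9.98, 9.62, 9.39, 9.02 and 9.17. With EGTA it was 10.39, then 9.55, 9.07, 8.70, 8.75 and 8.83. The 3 conditions were within 0.12 of each other without LPS, and the EGTA values were the lowest at each LPS time. Over the conditions the change was -0.60 ± 0.12 at 2 h (limma adjusted p = 8.83e-04) and -1.39 ± 0.12 at 12 h (1.08e-07, same fit). The step from 2 to 4 h was itself called, at -0.41 ± 0.12 (limma adjusted p = 0.0128), but not when the EGTA array at 4 h was left out. The 2 other Klf9 probe sets that could be tested gave mean changes of -1.42 and -1.16, beside -1.11 for the one used. A further 4 were too dim to be tested.

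Klf2, which keeps T cells quiescent and endothelium unactivated, was close to the array's gene median and above it on 7 of 18 arrays. It read 7.22, 7.77 and 7.07 without LPS in wild type, EGTA and Cd14-deficient cells, and 6.41, 6.36 and 6.49 after 24 h. At 2 h it read 7.27, 7.21 and 6.96. The LPS arrays overlapped the unstimulated ones at 2, 4 and 12 h and lay below all of them at 6 and 24 h. The change was -0.93 ± 0.20 at 24 h (limma adjusted p = 0.00113) and -0.54 ± 0.15 over all times (0.00711, same fit). The mean change was -0.27 (limma adjusted p = 0.135) without the unstimulated EGTA array, the highest Klf2 value and the array that stood apart, so that call rested on it.

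Klf7 and Klf3 rose at 2 h. Klf7, a factor best known from neuronal development, went from 8.95 to 9.58 within 2 h in wild type, from 8.62 to 9.48 with EGTA and from 8.75 to 9.71 without CD14. Each 2 h array thus exceeded each unstimulated one. The change at 2 h was 0.82 ± 0.17 (limma adjusted p = 0.00125) and the step from 2 to 4 h was -1.09 ± 0.17 (1.46e-04, same fit). From 4 h on, wild type levels were 7.99, 7.96, 8.23 and 8.05, below the unstimulated 8.95. The change at 24 h was -0.46 ± 0.17 (limma adjusted p = 0.0307) and at 6 h -0.43 ± 0.17 (0.0380). The mean over all times, -0.14 ± 0.13, was not called (limma adjusted p = 0.355). Of the 3 other Klf7 probe sets, the changes at 2 h were 1.11, 0.85 and 0.56, of which 0.56 missed the threshold (limma adjusted p = 0.0599). None of these 3 was called at 24 h, and 1 of them was on the positive side there, at 0.18 (limma adjusted p = 0.625), so that call rests on the probe set used. With median centring the changes were -0.33 at 6 h (limma adjusted p = 0.163) and -0.39 at 24 h (0.111). Both calls were also lost when any of 3 arrays was left out, with -0.20 at 6 h and -0.24 at 24 h without the unstimulated wild type array.

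Klf3, a repressor that recruits the co-repressor CtBP, was 7.99 without LPS and 8.68 at 2 h in wild type cells. It was 8.67 and 9.06 with EGTA, and 7.79 and 9.03 without CD14. The 2 h arrays lay above the unstimulated ones, except that the 2 h wild type array and the unstimulated EGTA array were level. The change at 2 h was 0.77 ± 0.21 (limma adjusted p = 0.00888), and the step from 2 to 4 h was -0.61 ± 0.21 (0.0316, same fit), a call lost when any of 4 arrays was left out (wild type 4 h, EGTA 2 h, EGTA 4 h or Cd14-deficient 2 h). Klf3's probe sets differed in size of response. The 2 dimmer ones rose by 1.42 and 1.61 at 2 h (limma adjusted p = 1.8e-06 and 6.48e-06) and by 0.60 and 0.74 over all times (2.33e-04 and 3.3e-04). They were still higher at 4 h, by 0.63 and 0.59, and at 6 h, by 0.53 and 0.76 (limma adjusted p = 0.00146, 0.0125, 0.00473 and 0.00233). The brightest one gave 0.17 ± 0.16 over all times (limma adjusted p = 0.366), turning to -0.14 without scaling, where the change at 2 h was 0.47 (0.0557).

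Klf6, an early-response member, was the only one called higher at all 5 times. Its unstimulated levels were 10.88 in wild type, 10.69 in the EGTA series and 10.84 in Cd14-deficient cells. It peaked at 4 h, at 11.55, 11.25 and 11.31 in the same order. At 24 h it read 11.04, 10.99 and 11.15, all still above each unstimulated array. The change was 0.57 ± 0.07 at 4 h (limma adjusted p = 5.34e-06) and 0.33 ± 0.05 over all times (7.05e-05, same fit). At 2 h it was 0.20 ± 0.07 (limma adjusted p = 0.0319), a call lost when any of 5 arrays was left out. Without scaling the mean change was 0.21 (limma adjusted p = 0.0948), or 0.53 above the median of all genes there, compared with 0.38 above it after quantile normalisation. Only the 4 h change of Klf6 was called there, and at 24 h the change was 0.04 (limma adjusted p = 0.825).

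**Figure D2:**
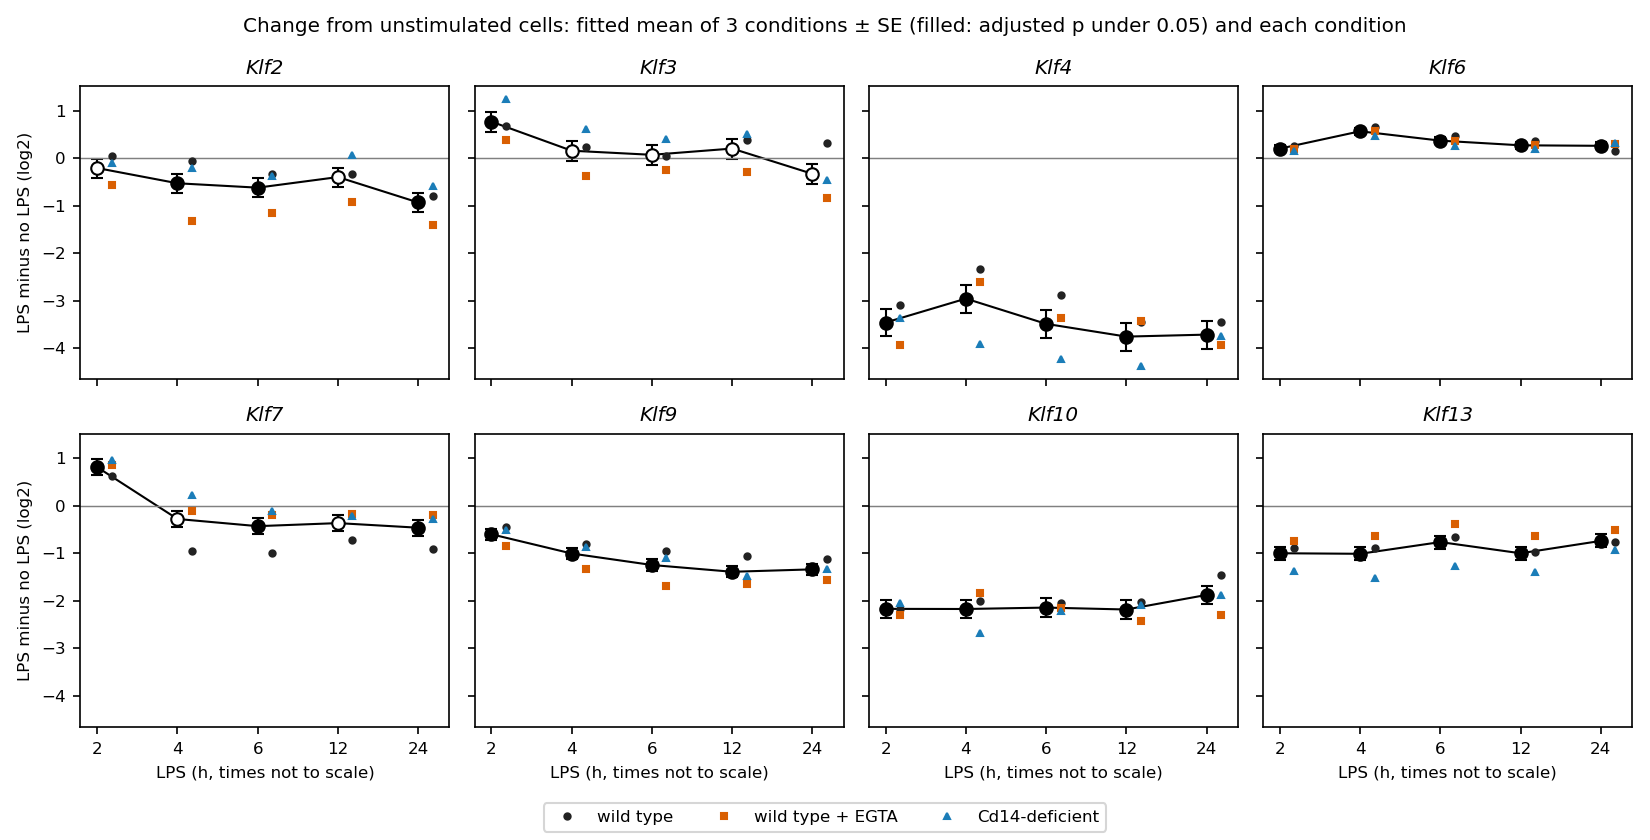
Change from unstimulated cells (y axis, log2) at each LPS time (x axis, hours, not to scale), as the limma estimate over 3 conditions ± SE (large circles, filled where the adjusted p is under 0.05) and the value of each condition (small symbols, drawn just to the right). Klf4 and Klf10 lie between -4.38 and -1.45 in each condition and time, and Klf7 and Klf3 are above 0 in all conditions at 2 h.

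Between neighbouring times, 1 member rose and 3 fell from 2 to 4 h (18.9% and 20.3% of all genes). Klf6 rose by 0.37 ± 0.07 (limma adjusted p = 8.45e-04), and Klf7, Klf3 and Klf9 fell. After 4 h no member changed from one time to the next by limma's adjusted p. Of all genes, 0.524% were called from 4 to 6 h, 12.4% from 6 to 12 h and 15.4% from 12 to 24 h. At an unadjusted limma p under 0.05 there were 1, 0 and 2 members in these steps, against 13.1%, 28.0% and 29.6% of all genes. The 2 from 12 to 24 h were Klf2, at -0.54 (limma adjusted p = 0.0836), and Klf3, at -0.53.

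Conditions were then set against each other on the 15 LPS arrays, with the 5 times as replicates. Both comparisons with wild type use the same wild type arrays. With EGTA, Klf9 was 1.43-fold and Klf6 1.18-fold lower, 2 of 8 members (6.22% of all genes were lower and 7.40% higher). Without CD14, Klf7 was 1.43-fold higher, 1 of 8 members (17.1% higher and 12.6% lower), and none was called lower. Between Cd14-deficient and EGTA cells, Klf9 alone was called, higher without CD14 (16.8% higher and 14.4% lower). For Cd14-deficient against wild type cells, the split over all genes was 1184 higher and 873 lower after quantile normalisation, 823 and 1070 with median centring, and 301 and 1058 without scaling. For EGTA it was 513 and 431, 524 and 402, and 469 and 182 in the same order, and for Cd14-deficient against EGTA cells 1165 and 1001, 752 and 1269, and 262 and 1912.

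Klf9 was lower with EGTA than in wild type by 0.38, 0.49, 0.74, 0.58 and 0.42 at 2, 4, 6, 12 and 24 h, and differed by 0.02 without LPS. The mean difference was -0.52 ± 0.07 (limma adjusted p = 7.51e-04, lower at 5 of 5 times). Its 2 other tested probe sets gave -0.73 (limma adjusted p = 0.00193) and -0.58 (0.00186). In Cd14-deficient cells Klf9 differed from wild type by between -0.31 and 0.05, with a mean of -0.07 ± 0.07 (95% interval -0.22 to 0.09, limma adjusted p = 0.534). The 2 other tested probe sets gave -0.25 and -0.08 there, and those too dim to be tested were also below 0. Cd14-deficient cells exceeded EGTA cells by 0.46 ± 0.07 (limma adjusted p = 5.39e-04, higher at 5 of 5 times), or by 0.25 without scaling (0.0825). The EGTA difference under LPS minus that without LPS was -0.54 ± 0.18, which was not called (limma adjusted p = 0.155).

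Klf6 was lower with EGTA than in wild type by 0.26, 0.30, 0.30, 0.28 and 0.05 at the 5 times. Without LPS it was also lower, by 0.20 between the single arrays, and the induction by LPS differed between these conditions by only -0.04 ± 0.13 (limma adjusted p = 0.933). The mean difference under LPS was -0.24 ± 0.05 (limma adjusted p = 0.0138). Its 2 other probe sets gave -0.55 (limma adjusted p = 0.00546) and -0.45 (0.00178). The call on the brightest probe set was lost without the wild type array at 4 h (limma adjusted p = 0.0506) or at 6 h (0.0514), and without scaling (0.187). Leaving out the EGTA arrays at 12 and 24 h, those with the lowest RNA integrity, gave -0.25 (limma adjusted p = 0.0556). In Cd14-deficient cells Klf6 differed from wild type by -0.15 ± 0.05 (limma adjusted p = 0.0556, lower at 4 of 5 times), and this passed with median centring, at -0.26 (0.0112). It also passed without the wild type array at 24 h, at -0.21 (limma adjusted p = 0.00654).

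Klf7 was higher in Cd14-deficient than in wild type cells by 0.13, 1.00, 0.68, 0.31 and 0.43 from the 2 h to the 24 h array. Without LPS it was lower there by 0.20. The mean difference under LPS was 0.51 ± 0.11 (limma adjusted p = 0.00315, higher at 5 of 5 times). Its 3 other probe sets gave 0.61 (limma adjusted p = 0.00216), 0.32 (0.0706) and 0.26 (0.422). EGTA cells were above wild type by 0.53, 0.47, 0.23 and 0.38 from 4 to 24 h and below it by 0.10 at 2 h. That mean, 0.30 ± 0.11, was not called (limma adjusted p = 0.0765), and was without the wild type array at 2 h, at 0.40 (0.0197). In the wild type series Klf7 at 4 h and later lay below each EGTA and Cd14-deficient array, unlike at 2 h (9.58). The share of all genes that separate in this way was not counted. The LPS induction differed from wild type by 0.71 ± 0.26 without CD14 (limma adjusted p = 0.476) and by 0.63 ± 0.26 with EGTA (0.264), neither called.

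**Figure D3:**
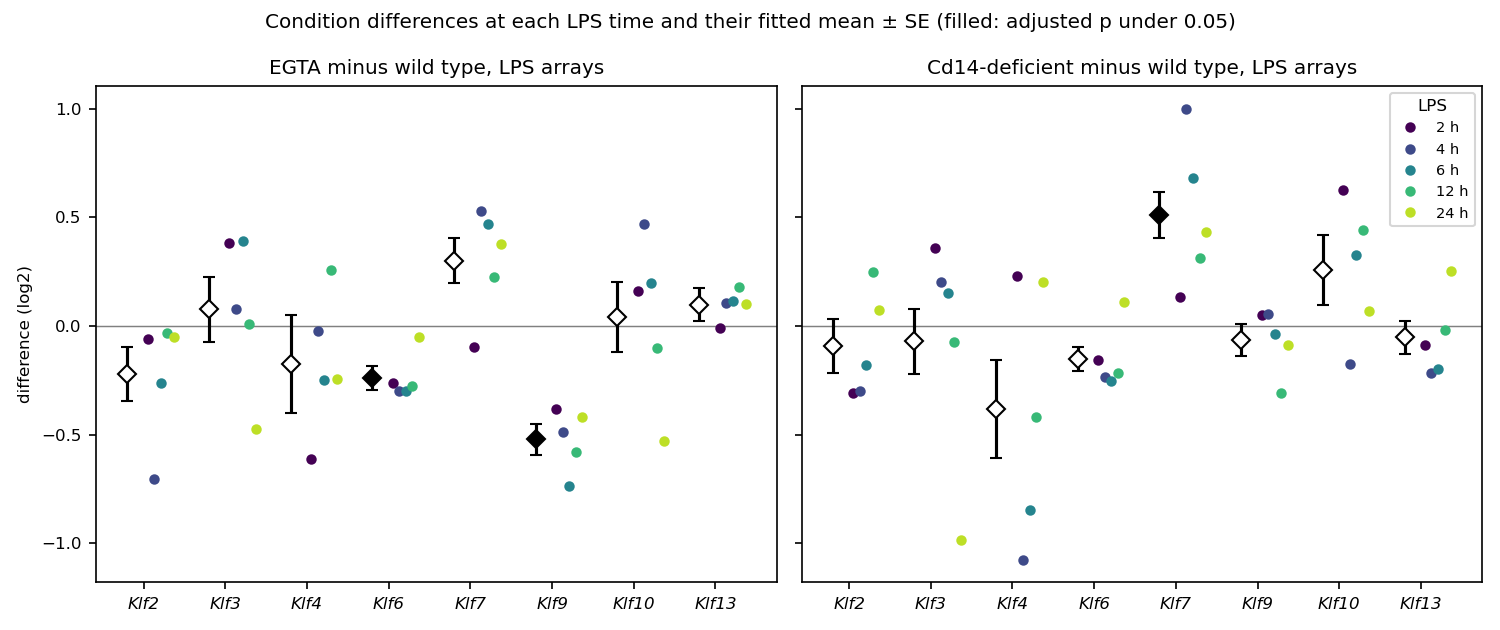
Difference from wild type (y axis, log2) at each LPS time (circles, coloured by hour) and the limma mean over the 5 times ± SE (diamonds, filled where the adjusted p is under 0.05) for each member, with EGTA on the left and Cd14 deficiency on the right. Klf9 is below 0 at all 5 times with EGTA and between -0.31 and 0.05 without CD14, and Klf7 is above 0 at all 5 times without CD14.

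Klf4 was lower in Cd14-deficient than in wild type cells at 4, 6 and 12 h, by 1.08, 0.85 and 0.42, and higher at 2 and 24 h, by 0.23 and 0.20. Its Cd14-deficient values at 6 and 12 h, 6.97 and 6.82, were dim, below the array's gene medians of 7.05 and 7.07. The mean difference, -0.38 ± 0.23 (95% interval -0.87 to 0.11, limma adjusted p = 0.225), was not called, but was at -0.59 (0.0452) without the Cd14-deficient array at 2 h. With EGTA the mean difference was -0.17 ± 0.23 (95% interval -0.66 to 0.31, limma adjusted p = 0.663). Klf10 differed by 0.26 ± 0.16 without CD14 (limma adjusted p = 0.250), or 0.42 (0.0463) without the Cd14-deficient array at 4 h. With EGTA it differed by 0.04 ± 0.16 (limma adjusted p = 0.897). Klf10 was dim under LPS too, and its Cd14-deficient value at 4 h, 7.04, was level with the array's gene median. For Klf2, Klf3 and Klf13 the mean differences from wild type lay between -0.22 and 0.10 in both conditions, and none was called. The 2 dimmer Klf3 probe sets were higher with EGTA, by 0.30 (limma adjusted p = 0.0642) and 0.45 (0.0103), and lower without CD14 than with EGTA, by 0.45 (0.00414) and 0.50 (0.00241).

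No member was called for a difference between early (2, 4 and 6 h) and late (12 and 24 h) times or for a difference in induction by LPS. For early against late times, 0.0433% of all genes were called without CD14 and 0% with EGTA, and for induction 0.156% and 1.66%. Unadjusted limma p-values under 0.05 were found for 1, 1, 2 and 3 of the 8 members in the same order, against 13.5%, 11.8%, 8.53% and 15% of all genes. The early-against-late one without CD14 was Klf3, whose difference from wild type was 0.77 ± 0.23 higher early (limma adjusted p = 0.183). It was called at 1.22 (0.0327) without the 12 h arrays. Its single differences were 0.36, 0.20, 0.15, -0.08 and -0.98.

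**Figure D4:**
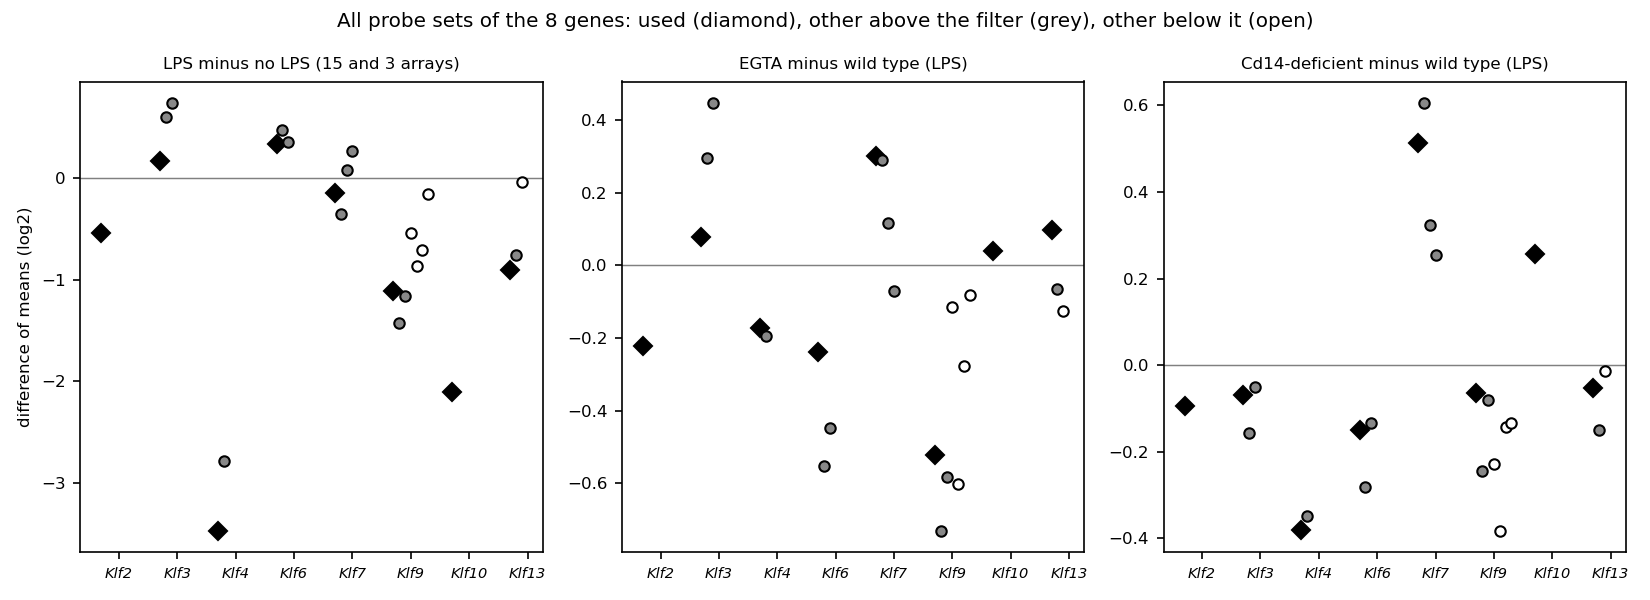
Mean differences (y axis, log2) given by all 24 probe sets of the 8 genes for LPS against no LPS, EGTA against wild type and Cd14-deficient against wild type (panels), with the probe set used as a diamond, others above the filter on low values in grey and those below it open. The Klf9 and Klf6 probe sets above the filter are all below 0 with EGTA, those of Klf7 are all above 0 without CD14, and those of Klf3 differ in size under LPS.

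Markers of other cells of a marrow culture moved in the same comparisons. Of 9 macrophage markers, 6 fell with LPS and 1 rose, and all 8 granulocyte markers fell. Of all genes tested, 34.7% fell and 27.3% rose. Summed intensity of the macrophage list was 34757 without LPS in wild type and 22726 to 30293 with it, 37531 and 25758 to 31414 with EGTA, and 32325 and 15358 to 27236 without CD14. That of the granulocyte list went from 31468 to between 3732 and 25491 in wild type cells. Under LPS, Cd14-deficient cells had 6 of 9 macrophage markers lower and 5 of 8 granulocyte markers higher than wild type. Of all genes, 12.6% were lower and 17.1% higher in that comparison. EGTA cells had 3 of 9 macrophage markers higher than wild type and 0 of 8 granulocyte markers called. Of all genes, 6.22% were lower and 7.40% higher with EGTA. Of 4 tested mast cell and basophil markers, 2 were lower with EGTA (Mcpt8 -0.68 and Cpa3 -0.50) and 2 without CD14 (Cpa3 -0.47 and Kit -0.36), and none was higher. The untested markers of this list were not above the array's gene median on any array. Summed intensity of all 6 markers of that list under LPS was 727 to 1096 in wild type, 608 to 954 with EGTA and 592 to 781 without CD14, and Mcpt8 alone fell in the mean over the LPS times. Of the B cell markers Blnk alone could be tested, and it rose with LPS (1.46) and was lower with EGTA (-0.40). The other B cell markers measured were not above the array's gene median on any array, so Blnk alone does not show B cells. Whether these cells took part in the changes of Klf4 and the other members, or in the lower Klf9 and Klf6 with EGTA, was not tested.

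The genes that act around the family were read from short lists. Of all genes tested, 27.3% rose and 34.7% fell in the mean over the LPS times, and 16.4% and 25.0% at 2 h. Between conditions, 17.1% were higher and 12.6% lower without CD14 than in wild type, and 7.40% and 6.22% with EGTA. Cd14-deficient against EGTA cells gave 16.8% higher and 14.4% lower. Klf2 and Klf4 are induced in other cells by the kinases Map3k3, Map2k5 and Mapk7 through MEF2 factors. In the mean over the LPS times, 5 of these 6 genes fell and none rose, with a list median of -0.52 against -0.05 over all genes. The 3 of smallest p were Mef2c (-1.88), Mef2d (-1.24) and Mef2a (-0.49). Mef2c passed the filter on low values only with the unstimulated arrays included. Its fall, counted here and at 2 h, was therefore favoured by the filter and is no support. At 2 h 5 were lower and Mef2a was higher (0.26, limma adjusted p = 0.0478). None of the 5 that could be tested was called in any comparison between conditions. Of 8 co-factors that Krüppel-like factors recruit, 4 rose and 3 fell in the mean over the LPS times, including the histone acetyltransferase Kat2b (0.47), the scaffold Sin3b (0.38) and the Klf3 partner Ctbp1 (-0.55). Without CD14, Ctbp2 (0.44) and Ctbp1 (0.22) were higher and Kat2b (-0.32) was lower than in wild type. With EGTA the histone deacetylase Hdac1 was lower (-0.36), the 1 co-factor called. Against EGTA cells, Cd14-deficient cells had 3 co-factors higher, Ctbp2 (0.61), Hdac1 (0.41) and Ctbp1 (0.26), and 1 lower.

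Of 6 ubiquitin ligases and related enzymes that govern turnover of the proteins, 3 rose with LPS in the mean over times, among them Fbxw7 (0.45) and Siah1a (0.50), and 2 fell, among them Itch (-0.52). Itch was higher with EGTA than in wild type (0.23), and none was called without CD14. Against EGTA cells, Cd14-deficient cells had Itch lower (-0.33) and Usp10 higher (0.32). Of 11 tested genes reported as targets of the family in other cells, 3 rose and 4 fell in the same mean. Ccl5, a Klf13 target in T cells, rose by 1.08, whereas thrombomodulin (Thbd), induced by Klf2 and Klf4 in endothelium, fell by 2.34 and Txnip fell by 1.43. Like Mef2c, Thbd passed the filter on low values only with the unstimulated arrays included, so its fall is no support. In the comparisons between conditions Ccl5 was lower without CD14 (-0.15), and Tgfb1 was higher with EGTA (0.37). Against EGTA cells, Cd14-deficient cells had Tgfb1 (-0.42), Cdkn1b (-0.34) and Ddit4 (-0.71) lower and no target higher. Of 12 other KLF or SP genes on the array, 3 could be tested. Over all times Sp3 alone changed with LPS (-0.45), and at 2 h Sp3 (-0.58) and Klf16 (-0.67) were both lower. Klf16 was also higher without CD14 than with EGTA (0.49). All calls in these lists are from limma, adjusted over all genes tested, and the shares of all genes called are those given before the first list.

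Members that share a time course were compared by Pearson's r over arrays, given as a description because the arrays share times and conditions. Klf4, Klf10 and Klf13 were close, with r = 0.91 for Klf4 and Klf10, 0.89 for Klf10 and Klf13 and 0.87 for Klf4 and Klf13 over 18 arrays. Over the 15 LPS arrays alone these were 0.02, 0.27 and 0.14, so the likeness lay in the step from no LPS to LPS. Among 7055 other genes, those most like Klf4 were Bach1, a repressor of the heme response (r = 0.94), the inhibitor of differentiation Id1 (0.93) and the phosphatase Ptpn2 (0.93). The least alike were Nfkbia, the inhibitor of NF-κB, and the lectin Clec4e, both at -0.96. For Klf10 they were Id1 (0.93), Nsmce4a (0.92) and Rmnd5b (0.92), and for Klf13 they were Klf10, Jmjd1c (0.88) and Klf4.

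The other members each had different neighbours. Klf9 was most like Mpp6 (0.95), Tm6sf1 (0.95) and the phosphatase Cdc25b (0.94). Klf7 was most like Tfec, a transcription factor of macrophages (0.92), the nucleolar protein gene Nop58 (0.92) and Frmd6 (0.90). Klf6 was closest to Znrf1 (0.90), Atl3 (0.88) and Rab22a (0.87). Klf3 reached 0.78 with each of Icosl, the ligand of the T cell receptor ICOS, Rnf19a and Txnl1. Klf2 reached 0.86 with Ceacam1 and 0.85 with both Myo5a and Mapre2, and was least like Gstt1 (-0.86) and Prpf3 (-0.85).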

How the data were processed

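RNA was hybridised to 18 Affymetrix arrays, each with 22690 probe sets. The authors deposited 1 linear intensity per probe set. They made it with MAS5, according to the submitters' processing notes, with the version and scaling target not given in the sources used here. Because MAS5 summarises each array by itself, values were quantile-normalised and log2(value + 16) was taken. Of the probe sets, 20393 were annotated to 1 gene, 691 to several and 1606 to none, and the first group gave 12394 genes by the probe set with the highest mean.

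Tests used limma 3.58.1 in R 4.3.3 (lmFit, eBayes with an intensity trend) on genes above the array's gene median on at least 2 fitted arrays. Conditions were compared over 15 LPS arrays with time as a block (6929 genes, 8 residual degrees of freedom), and LPS times over 18 arrays with condition as a block (7056 genes, 10). Early against late effects and differences in induction were interaction terms (6 and 8). For induction, each condition's single unstimulated array was taken to vary as LPS arrays do. P-values were Benjamini-Hochberg adjusted over all genes tested. Errors given as ± are standard errors, and precision is limited by how many arrays there are. The steps were tested on simulated data.

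The members, gene lists, marker lists and tests were chosen with earlier results of these data known. All 8 members are named, with Cd14, up to 3 genes of smallest p per list and comparison, and the 3 most correlated genes per member (for Klf2 and Klf4 also the 2 least). Itgax, Flt3 and the kinases Map3k3, Map2k5 and Mapk7 are named outside that rule, to say what their lists hold. Alternatives were other scalings, added constants of 1 and 64, no filter, the mean of all probe sets and each other probe set, no intensity trend, and leaving out each array, each time and the arrays of lower quality. Sequences and GRCm38.p6 coordinates are RefSeq's, and no build is named with the arrays.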

Additional observations from a re-analysis of the deposited data

How the results depend on the processing

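Under 31 alternative settings and the other probe sets, the 46 called member results kept their direction and call in 1390 of the values obtained, lost the call in 60 and reversed in 1. The 66 results not called became called in 51 values, and 92 values changed sign without a call. The reversed value was Klf7 at 24 h, 0.18 with its dimmest probe set (limma adjusted p = 0.625). Between Cd14-deficient and wild type cells, 2 members were called with median centring, without scaling and with the mean of all probe sets, each time Klf6 in addition (-0.26, -0.33 and -0.19). Between EGTA and wild type cells 1 member was called without scaling and 1 without the EGTA arrays at 12 and 24 h, Klf6 being lost in both. Between Cd14-deficient and EGTA cells 2 were called with the mean of all probe sets, Klf3 and Klf6, and Klf9 was not (0.23, limma adjusted p = 0.0510). Without scaling, Klf13 was called there in place of Klf9, at -0.36 (limma adjusted p = 0.0236), where the median of all genes was -0.17. With quantile normalisation, Klf13 was called in that comparison in 2 of the settings that left out an array or time.

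Leaving out each array or time in turn gave 1 to 2 called members for Cd14-deficient against wild type, 1 to 3 for EGTA against wild type, 1 to 2 for Cd14-deficient against EGTA, and 0 to 1 for early against late without CD14. The other interaction terms stayed at 0. For LPS it gave 6 to 7 at 2 h, 5 to 6 at 4 h, 5 to 7 at 6 h, 5 to 7 at 12 h, 6 to 7 at 24 h, 5 to 7 for the mean and 2 to 5 for the step from 2 to 4 h. Calls lost without 1 array were Klf2 at 4 h (unstimulated EGTA, EGTA 4 h or Cd14-deficient 4 h) and at 6 h (unstimulated EGTA or EGTA 6 h). Others were Klf7 at 6 h (unstimulated wild type, wild type 6 h or EGTA 6 h) and at 24 h (unstimulated wild type, wild type 24 h or Cd14-deficient 24 h). Klf6 at 2 h was lost without any of unstimulated wild type, unstimulated EGTA or the 3 arrays at 2 h, and Klf3 from 2 to 4 h without wild type 4 h, EGTA 2 h, EGTA 4 h or Cd14-deficient 2 h. The rest were Klf6 with EGTA against wild type (wild type 4 h or 6 h), the Klf2 mean over LPS times (unstimulated EGTA) and Klf9 from 2 to 4 h (EGTA 4 h). Leaving out a whole time also lost Klf6 with EGTA (4, 6 or 12 h) and Klf7 at 6 h (12 h). Unless a value above shows it, the cause was not tested. No paired analysis was possible because the labels carry no replicate numbers; the fits given already hold time, or condition, as a block.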
